A study of Mus musculus with 16 samples.

Results

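Microglia with a Cre-driven deletion in the p38α gene were compared between mice with and without the APPswe/PS1dE9 transgenes. RNA was sequenced from 4 AD p38KO and 4 WT p38KO mice, which make up 8 of the 16 libraries of the series. The libraries were chosen by their labels alone. AD p38KO mice carried the APPswe/PS1dE9 transgenes (labelled +/-), loxP-flanked alleles of Mapk14, the p38α gene (fl/fl), and Cx3cr1-creERT2 (+/-), which deletes the first exon of these alleles after tamoxifen. WT p38KO mice had the same floxed alleles and the same Cre copy without the APPswe/PS1dE9 transgenes. The other 8 libraries came from AD p38+/+ and WT p38+/+ mice, which had the floxed alleles but no Cre. All mice were on a C57BL/6J background, ate tamoxifen chow (400 ppm) for 4 weeks from 5 months of age, and were sampled at 11 months. About 10000 live cells positive for CD11b and P2ry12 were sorted from the left hemisphere of each mouse, without olfactory bulb, brainstem and cerebellum. The labels name WT p38KO mice 1 and 2 and AD p38KO mouse 1 as female and the other 5 as male. Cre acts in other cells that use Cx3cr1 as well as in microglia, and both groups compared here have lost 1 functional Cx3cr1 copy to the CreERT2 insertion.

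Microglia are the resident macrophages of the brain, and p38α is a stress-activated kinase that acts downstream of many inflammatory receptors. Around amyloid deposits microglia take on a disease-associated (DAM) state, in which receptors such as Trem2 and Axl, lipid-handling genes such as Apoe and Lpl, and lysosomal enzymes are raised while homeostatic genes such as P2ry12 and Tmem119 are lowered. Comparing AD with WT mice when both carry the p38α deletion asks which parts of this response are seen in microglia with the deletion.

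Values are CPM, the reads of a gene scaled to a common total of assigned reads. Fold changes are on the log2(CPM + 0.5) scale, where 0.5 CPM was added before taking the log, so they understate the change of scarce genes. The p38α deletion was checked in its RNA only, and p38α protein was not measured here. Below, "without p38α" stands for the p38KO groups. The Mapk14 transcript that encodes isoform 1, ENSMUST00000062694, was at 0.110 ± 0.0703 CPM in the WT group and 0.128 ± 0.0832 CPM in the AD group with p38α deleted, against 68.6 ± 16 CPM in the WT p38+/+ group and 65.7 ± 5.38 CPM in the AD p38+/+ group (SD, n = 4 each). Another Mapk14 transcript, ENSMUST00000114752, was not lost, at 149 ± 14.3 CPM (WT) and 143 ± 8.7 CPM (AD) after deletion against 88.2 ± 11.8 CPM (WT) and 74.5 ± 9.55 CPM (AD) with p38α intact (SD, n = 4 each). All Mapk14 RNA together was at 138 to 169 CPM in the 8 p38KO and 152 to 210.2 CPM in the 8 p38+/+ libraries, so the gene total alone does not tell the genotypes apart. The sorted cells carried Csf1r, a defining marker of microglia, at 17816 ± 1119 CPM without and 17419 ± 316 CPM with the AD transgenes (SD, n = 4 each). The summed level of 12 neuronal markers was 4.91 to 12 CPM in WT p38KO mice and 5.28 to 13.1 CPM in AD p38KO mice, with Gad1 at 0 in all 8. Other lists summed higher. Astrocyte markers were at 187 to 293 CPM (WT p38KO) and 167 to 208 CPM (AD p38KO), and oligodendrocyte markers at 207 to 241 and 224 to 273 CPM. Lymphocyte and NK cell markers were at 473 to 643 CPM (WT p38KO) and 602 to 718 CPM (AD p38KO). Of the 20 markers in this list, 9 were in the data and only 2 reached 1 CPM in at least 4 of the 8 libraries. Cd3e, Cd4, Gzmb, Klrb1c, Cd79a, Igkc and Lck did not, so this sum is no measure of lymphocyte content.

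Several libraries stood apart. AD p38KO mouse 1, labelled female, had Xist at 0 CPM and Ddx3y, Eif2s3y, Kdm5d and Uty at 0 CPM, so it carried neither the female nor the male RNA. The other 4 libraries labelled female had Xist at 188 to 254 CPM, and the 11 labelled male had Ddx3y at 36.0 to 77.2 CPM. A principal component analysis of the 8 libraries set AD p38KO mouse 4 at 97.1 on its leading axis, where the other 7 lay between -16.5 and -10.1, and AD p38KO mouse 1 at -70.1 on the next axis, where the others lay between -2.35 and 18.2. Summed red blood cell markers were 364 CPM in WT p38KO mouse 3 and 467 CPM in AD p38KO mouse 4, and 0.0796 to 40.6 CPM in the other 6. AD p38KO libraries had fewer genes with at least 1 read, 15405 to 16755, than WT p38KO libraries, 17339 to 17567 (exact permutation test, two-sided, p = 0.0286, the smallest that 4 against 4 can give). The estimated depth was 12.6 to 14.8 reads per CPM in AD p38KO and 12.3 to 14 in WT p38KO libraries. A count of 3 reads corresponded to 0.203 to 0.244 CPM in these 8.

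In p38-deleted microglia, a small set of genes was much higher in APP/PS1 mice and a smaller set of mostly scarce genes was lower. Cst7, Ank, Igf1, Axl, Csf1, Lpl, Ccl3 and Ccl4 were among the genes that rose, and most of the genes that fell were close to 0 in AD p38KO mice. Of 13000 genes tested, 43 were called at an adjusted p under 0.05 (0.331%). Of these, 33 were higher (0.254%) and 10 were lower (0.0769%) in AD p38KO mice. Without adjustment, 1224 genes (9.42%) had a p under 0.05, of which 502 were higher (3.86%) and 722 lower (5.55%). The groups did not overlap for all 43, against 356 higher genes (2.74%) and 287 lower genes (2.21%) over the whole table. All adjusted p-values come from limma across all genes, with Benjamini-Hochberg adjustment. All 43 kept their direction in every other processing tried that tested them. Where mice were left out or the pseudocount was changed, the lack of overlap fixed this outcome in advance. The calls of 19 genes remained whichever single library of the 8 was left out: Actr3b, Ank, Anxa5, Axl, Baiap2l2, Capg, Ccl6, Cox6a2, Crip1, Csf1, Cst7, Dcstamp, Fgf1, Igf1, Maged1, Mamdc2 and Tmem163 among the higher genes and Adamtsl4 and Cd93 among the lower ones. The other 24 calls were lost without at least 1 library. The 43 calls became 24 without AD p38KO mouse 1, and 27, 26 and 22 without WT p38KO mouse 1, 3 and 4. The 10 lower calls became 20 and 17 without AD p38KO mouse 2 and 3, 6 without AD p38KO mouse 1, 5 without WT p38KO mouse 1 and 3 without WT p38KO mouse 2, 3 or 4. Without AD p38KO mice 1 and 4 together, 17 genes were called, among them 12 of the 33 higher and 1 of the 10 lower genes. In RNA from sorted cells, a lower share of cells expressing a gene and less of its RNA per cell cannot be told apart.

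**Figure D1:**
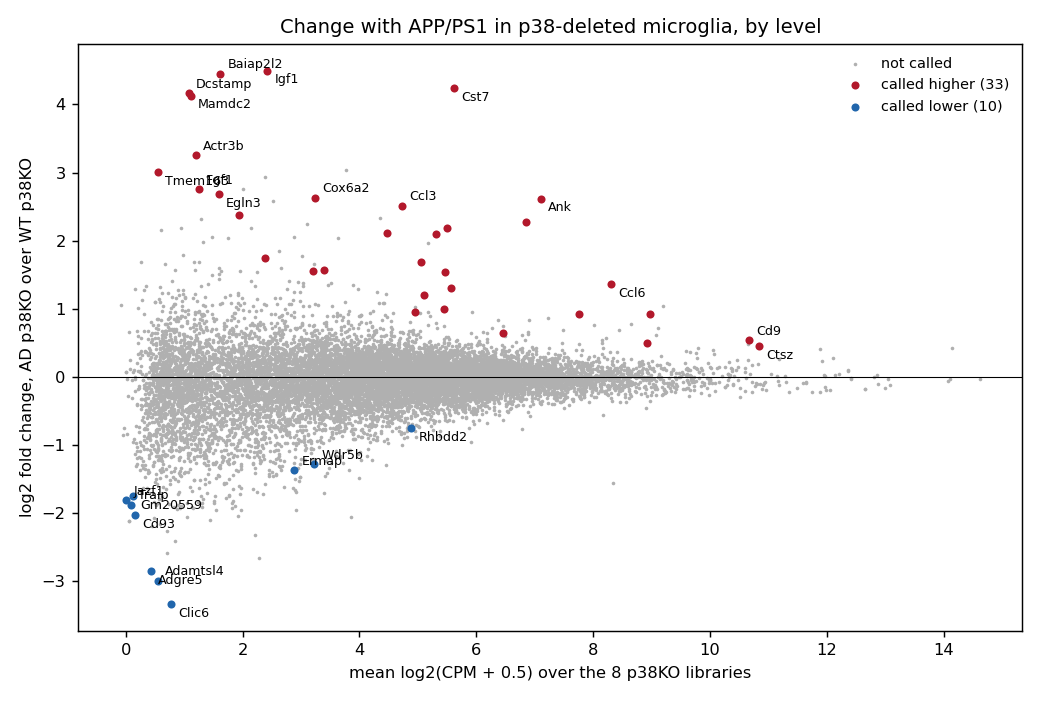
Each point is 1 of the 13000 genes tested, with its mean log2(CPM + 0.5) over the 8 p38KO libraries on the horizontal axis and its log2 fold change (AD p38KO over WT p38KO) on the vertical axis. The 33 genes called higher (red) span scarce to abundant genes, with Cd9 and Ctsz at the right, and 7 of the 10 called lower (blue) sit at the left edge.

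Promoters are shown for the called genes with the largest changes for which RefSeq (GRCm38.p6) gave a start within 50 bases of a transcript start in the deposited annotation and no annotated exon lay in the window. These are the 250 bases before the start, 5′ to 3′ on the gene's strand, and they let a reader see what lies upstream of Cst7, the gene with the smallest p, of Adamtsl4, which fell, and of Egln3, Ank, Ccl3 and Axl, which rose. Capitals mark GAGGAA, the core recognised by the macrophage factor PU.1, or its reverse complement TTCCTC.
Cst7, chr2:150570165-150570414, plus strand: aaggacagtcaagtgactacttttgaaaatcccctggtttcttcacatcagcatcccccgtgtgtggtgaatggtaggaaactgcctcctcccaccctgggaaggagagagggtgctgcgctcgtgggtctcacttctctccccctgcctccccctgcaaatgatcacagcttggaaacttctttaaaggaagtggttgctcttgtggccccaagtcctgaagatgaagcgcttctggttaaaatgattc
Adamtsl4, chr3:95687918-95688167, minus strand: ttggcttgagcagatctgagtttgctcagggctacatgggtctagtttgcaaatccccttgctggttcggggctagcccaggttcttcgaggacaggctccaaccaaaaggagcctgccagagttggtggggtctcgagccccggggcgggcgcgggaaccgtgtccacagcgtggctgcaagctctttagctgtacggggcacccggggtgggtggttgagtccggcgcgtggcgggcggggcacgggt
Egln3, chr12:54203875-54204124, minus strand: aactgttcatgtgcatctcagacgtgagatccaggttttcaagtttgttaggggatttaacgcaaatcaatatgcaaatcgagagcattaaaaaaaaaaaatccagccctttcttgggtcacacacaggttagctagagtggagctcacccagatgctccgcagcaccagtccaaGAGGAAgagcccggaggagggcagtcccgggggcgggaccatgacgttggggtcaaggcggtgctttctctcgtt
Ank, chr15:27466427-27466676, plus strand: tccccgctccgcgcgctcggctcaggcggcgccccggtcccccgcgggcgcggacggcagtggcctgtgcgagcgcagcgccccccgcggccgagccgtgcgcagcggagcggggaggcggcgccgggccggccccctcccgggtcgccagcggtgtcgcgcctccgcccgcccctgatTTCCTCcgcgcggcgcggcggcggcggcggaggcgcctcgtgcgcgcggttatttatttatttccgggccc
Ccl3, chr11:83649379-83649628, minus strand: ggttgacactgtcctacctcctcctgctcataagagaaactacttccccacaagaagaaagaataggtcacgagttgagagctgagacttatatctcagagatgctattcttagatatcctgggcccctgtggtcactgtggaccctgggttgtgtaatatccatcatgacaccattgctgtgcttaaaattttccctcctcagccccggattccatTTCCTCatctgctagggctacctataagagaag
Axl, chr7:25788734-25788983, minus strand: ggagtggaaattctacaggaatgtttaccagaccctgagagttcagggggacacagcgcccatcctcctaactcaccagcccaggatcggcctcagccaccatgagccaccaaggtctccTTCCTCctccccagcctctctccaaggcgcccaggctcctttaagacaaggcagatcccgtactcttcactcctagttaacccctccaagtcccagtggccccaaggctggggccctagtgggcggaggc
GAGGAA was found on either strand in 4 of the 13 higher genes that could be searched (Egln3, Ank, Ccl3 and Axl) and in 1 of 3 lower genes (Gm20559), against 23.3% of all 32851 promoters of the same length. TGANTCA (AP-1), CACGTG (the E-box of lysosomal and MITF/TFE factors) and TATAAA were found in 0 of the 16, against 6.75%, 6.02% and 12.4% of all promoters, and no match overlapped another motif. A match is a description of these letters and not a binding site. RefSeq entries were matched for 31 of the 43 called genes.

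Of 75 DAM genes listed, 69 were tested and 18 were called higher, against 0.254% of all genes, and none was called lower. Among the 18, Baiap2l2 and Mamdc2 were under 1 CPM in every WT p38KO mouse. Both passed the filter on low values through the AD p38KO mice alone, and the counts in this paragraph include them. At an unadjusted p under 0.05, 46 of the 69 were higher and 0 lower, against 3.86% and 5.55% of all genes. The groups did not overlap for 40, all higher, against 2.74% of all genes. These shares over all genes also apply to the lists below. The log2 fold change was positive for 65 of the 69, against 44.5% of all genes, and its median was 0.66, against -0.04 over all genes. With p38α intact it was positive for 66, against 48.7% of all genes. DAM genes called higher numbered 10 without AD p38KO mouse 1, 11 without WT p38KO mouse 1, 3 or 4, and 9 without AD p38KO mice 1 and 4.

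Among secreted factors, 8 of 17 tested were called. Cst7 encodes cystatin F, an inhibitor of lysosomal proteases. It was at 10.7, 13.7, 10.6 and 8.74 CPM in WT p38KO mice 1 to 4 and at 290, 246, 158 and 185 CPM in AD p38KO mice 1 to 4. The groups lay far apart, with a log2 fold change of 4.24 ± 0.30 (SE, limma adjusted p = 5.99e-07). Igf1, the growth factor, was at 0.976, 2.17, 0.144 and 0.143 CPM in WT p38KO mice and at 23.3, 35.4, 36.1 and 13.1 CPM in AD p38KO mice. Its log2 fold change of 4.5 ± 0.59 (SE, limma adjusted p = 0.00114) was the largest of the 33 with 0.5 CPM added, whereas with 0.1 CPM added those of Dcstamp (6.42), Mamdc2 (6.22) and Baiap2l2 (5.87) were above that of Igf1 (5.35). Mamdc2, a secreted matrix protein, had 1 read over the 4 WT p38KO libraries (in mouse 3, 0.072 CPM) and was at 25.5, 13.5, 3.49 and 4.13 CPM in AD p38KO mice. Its ratio of reads between groups was 620-fold, with a 95% counting interval of 110.9 to 24540 that covers counting error only, and its limma adjusted p was 0.0009.

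Csf1, the ligand of the receptor Csf1r that microglia need to survive, was at 21.2, 23.5, 18 and 13.5 CPM in WT p38KO mice and 95.8, 85.1, 78.3 and 68.7 CPM in AD p38KO mice. It rose by a log2 of 2.10 ± 0.31 (SE, limma adjusted p = 0.00373). Lpl, lipoprotein lipase, was at 19.4, 40.2, 24.2 and 9.74 CPM in WT p38KO mice and 112.03, 114.8, 80.1 and 83.4 CPM in AD p38KO mice. It rose by a log2 of 2.18 ± 0.43 (SE, limma adjusted p = 0.0329). The chemokines Ccl6, Ccl3 and Ccl4 were also called, each without overlap between groups. Ccl6 was at 232, 159, 203 and 202 CPM in WT p38KO mice and 551, 568, 482 and 439 CPM in AD p38KO mice (log2 fold change 1.36 ± 0.18, SE, limma adjusted p = 0.00114). Ccl3 was at 3.58, 21.7, 10.9 and 14 CPM in WT p38KO mice and 129, 51.8, 45.8 and 50.4 CPM in AD p38KO mice, and Ccl4 was at 4.88 to 22.7 and 32.1 to 68.6 CPM. Both recruit immune cells, and both were called (limma adjusted p = 0.0449 and 0.0303), but AD p38KO mouse 1 was the highest for each. Both calls were lost without AD p38KO mouse 1 or 2, and also without WT p38KO mouse 1, 3 or 4. The Ccl3 call was lost without AD p38KO mouse 3 or 4 as well. Apoe, the lipid carrier and risk gene, was at 626, 426, 316 and 333 CPM in WT p38KO mice and 747, 1165, 658 and 857 CPM in AD p38KO mice. The groups did not overlap, but Apoe was not called (log2 fold change 1.03 ± 0.39, SE, limma adjusted p = 0.401). Spp1, osteopontin, was at 4.39 to 39.2 CPM in WT p38KO mice and 5.68 to 58.6 CPM in AD p38KO mice, and these ranges overlapped (limma adjusted p = 0.884).

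**Figure D2:**
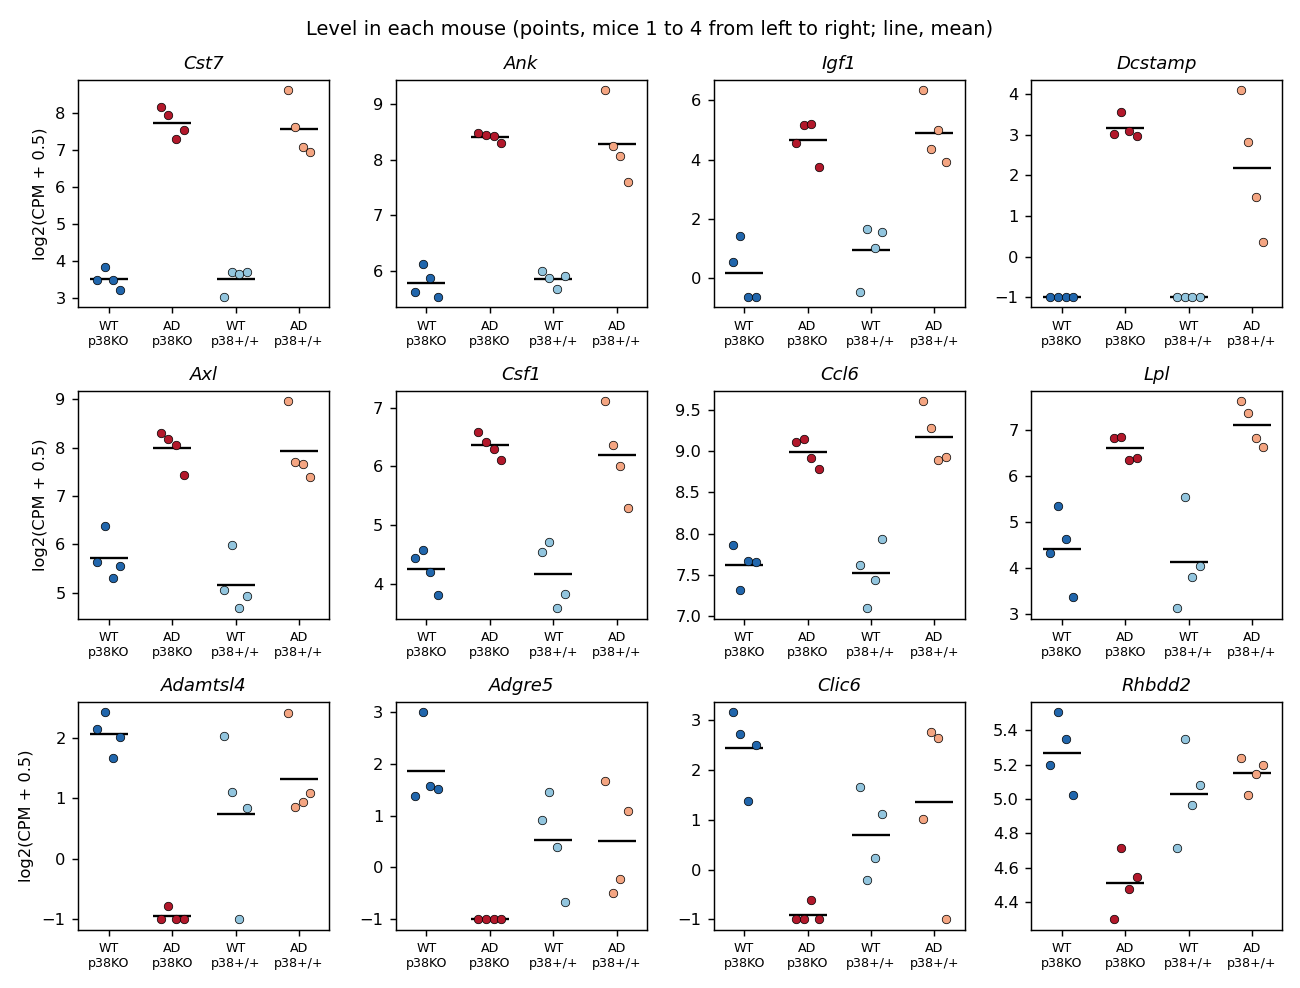
Each panel gives the log2(CPM + 0.5) of 1 gene in every mouse of the 4 groups (points) with the group mean (line). For Cst7, Ank, Igf1, Dcstamp, Axl, Csf1, Ccl6 and Lpl the AD mice lie above the WT mice in both p38 genotypes, whereas for Adamtsl4, Adgre5, Clic6 and Rhbdd2 the AD p38KO mice lie below the WT p38KO mice and the p38+/+ groups overlap.

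Among surface and membrane proteins, 4 of 26 tested were called higher and 14 were higher at an unadjusted p under 0.05 (0.254% and 3.86% of all genes). Ank, a transporter of pyrophosphate out of the cell, was at 49.0, 69.4, 58.5 and 45.8 CPM in WT p38KO mice and 357, 346, 344 and 313 CPM in AD p38KO mice. The 4 AD p38KO mice were close to each other, and the log2 fold change was 2.62 ± 0.24 (SE, limma adjusted p = 1.52e-05). Axl, a receptor tyrosine kinase that binds dying cells through Gas6, was at 49.5, 82.5, 39.1 and 46.4 CPM in WT p38KO mice and 315, 288, 265 and 174 CPM in AD p38KO mice (log2 fold change 2.27 ± 0.33, SE, limma adjusted p = 0.00245). The tetraspanins Cd63 and Cd9 rose less. Cd9 was abundant, at 1388, 1287, 1394 and 1337 CPM in WT p38KO mice and 1948, 2230, 1763 and 1915 CPM in AD p38KO mice (log2 fold change 0.54 ± 0.11, SE, limma adjusted p = 0.0443). Cd63 was at 130 to 190 and 267 to 327 CPM (limma adjusted p = 0.0267), and its reads may be shared with a processed pseudogene. Several well-known members were apart between groups without a call. Clec7a, the dectin-1 receptor, was at 5.45, 14.7, 2.66 and 23.5 CPM in WT p38KO mice and 102, 30.4, 38.3 and 35.8 CPM in AD p38KO mice (log2 fold change 2.33 ± 0.52, SE, limma adjusted p = 0.0708). Itgax, which encodes CD11c, was at 13.3 to 35.5 and 44.9 to 124 CPM (limma adjusted p = 0.0754), and Cd68 was at 804 to 1032 and 1147 to 1288 CPM (limma adjusted p = 0.0691). Trem2 was at 704 to 876 and 774 to 1101 CPM, with overlap between groups (log2 fold change 0.28 ± 0.11, SE, limma adjusted p = 0.414), and its adaptor Tyrobp was at 696 to 794 and 848 to 1119 CPM without overlap (limma adjusted p = 0.473).

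Among intracellular enzymes and adaptors, 6 of 26 were called higher and 21 were higher at an unadjusted p under 0.05 (0.254% and 3.86% of all genes). Baiap2l2, which binds membranes and actin, was at 0.163, 0, 0.288 and 0.215 CPM in WT p38KO mice and 25.4, 16.6, 12.8 and 6.70 CPM in AD p38KO mice (log2 fold change 4.45 ± 0.41, SE, limma adjusted p = 1.52e-05). Cox6a2, a muscle-type subunit of cytochrome oxidase, was at 4.64, 1.44, 5.18 and 3.15 CPM in WT p38KO mice and 40.8, 20.8, 18.9 and 17.4 CPM in AD p38KO mice (log2 fold change 2.63 ± 0.36, SE, limma adjusted p = 0.00157). Mouse 1 was the highest AD p38KO mouse for both. The actin-capping protein Capg rose from 25.2 to 36.5 CPM in WT p38KO mice to 65.0 to 86.4 CPM in AD p38KO mice (limma adjusted p = 0.0068). Of lysosomal enzymes, Ctsz and Gusb were called. Ctsz, cathepsin Z, was at 1655, 1493, 1539 and 1614 CPM in WT p38KO mice and 2297, 2179, 1908 and 2221 CPM in AD p38KO mice (log2 fold change 0.45 ± 0.09, SE, limma adjusted p = 0.0449), and Gusb was at 383 to 423 and 539 to 651 CPM (limma adjusted p = 0.0366). Neither call remained without AD p38KO mouse 1. Ctsd, the most abundant of the list, was at 15198 to 16236 CPM in WT p38KO mice and 19358 to 25054 CPM in AD p38KO mice, with no overlap and no call (limma adjusted p = 0.0852). Ch25h, which makes 25-hydroxycholesterol, was at 0.325, 21.1, 5.47 and 4.23 CPM in WT p38KO mice and 54.9, 36.8, 31.1 and 35 CPM in AD p38KO mice (limma adjusted p = 0.0712). Hif1a was at 174 to 213 and 281 to 393 CPM (limma adjusted p = 0.0592).

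The remaining higher genes lay mostly outside the lists, with 14 of the 33 in none. Dcstamp, a membrane protein needed for osteoclast fusion, was at 0 in all 4 WT p38KO mice and at 7.59, 11.3, 8.08 and 7.38 CPM in AD p38KO mice. It was at least 35.2-fold higher in AD p38KO mice, taking 3 reads in the WT p38KO library with the highest such limit (0.244 CPM) as the floor, with a limma adjusted p of 0.00114. Tmem163, a zinc transporter, had 1 read over the 4 WT p38KO libraries and was at 3.01, 2.55, 4.28 and 5.35 CPM in AD p38KO mice (limma adjusted p = 0.00238), where mouse 4 was the highest. Actr3b, an actin-related protein, was at 0, 0, 0.360 and 0.931 CPM in WT p38KO mice and 11.3, 6.53, 4.74 and 5.41 CPM in AD p38KO mice (limma adjusted p = 0.00238). Each of these 3 was under 1 CPM in every WT p38KO mouse and above 2 CPM in every AD p38KO mouse. Fgf1 was at 0, 0, 1.65 and 0.788 CPM and then 3.76, 7.48, 4.74 and 7.65 CPM (limma adjusted p = 0.0102). Egln3, a hypoxia-induced prolyl hydroxylase, was at 1.71, 0.506, 0 and 1.29 CPM in WT p38KO mice and 6.62, 6.37, 10.6 and 5.75 CPM in AD p38KO mice (log2 fold change 2.68 ± 0.53, SE, limma adjusted p = 0.0329). It was the only called member of the 22 glycolysis and hypoxia genes tested. In 5 of the 33 higher genes every WT p38KO mouse was under 1 CPM, so these passed the filter on low values through the AD p38KO mice alone. The other higher genes, namely Anxa5, Crip1, Maged1, Myo1e, Gnas, Mif, Psat1, Fam20c, Gla, Rab7b and Tsc22d1, had log2 fold changes between 0.63 (Maged1) and 2.38 (Rab7b). Mif has close processed pseudogenes and Gnas overlaps an antisense gene, and without strand or unique counting stated their levels are uncertain.

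The 10 genes called lower differed from the higher ones in level. Their median of group means was 3.66 CPM in WT p38KO mice and 0.0559 CPM in AD p38KO mice, and 7 of the 10 were under 1 CPM in all 4 AD p38KO mice, so these 7 passed the filter through the WT p38KO mice alone. None belonged to a list. Adamtsl4, a matrix protein that binds fibrillin, was at 3.91, 4.84, 2.66 and 3.51 CPM in WT p38KO mice. In AD p38KO mice it had 1 read, in mouse 2 (limma adjusted p = 0.011). Adgre5, the adhesion receptor CD97, was at 2.11, 7.42, 2.45 and 2.36 CPM in WT p38KO mice and at 0 in all 4 AD p38KO mice. It was at least 15-fold lower in AD p38KO mice against a floor of 3 reads in 1 library (0.239 CPM), with a limma adjusted p of 0.0252. Clic6, a chloride channel family member known from the choroid plexus, was at 8.46, 6.14, 2.09 and 5.16 CPM in WT p38KO mice and had 2 reads over the AD p38KO mice, both in mouse 3 (limma adjusted p = 0.0366). Cd93, a receptor of endothelial and myeloid cells, was at 2.36, 1.95, 1.73 and 1.15 CPM in WT p38KO mice and 0.0752, 0, 0 and 0.135 CPM in AD p38KO mice (limma adjusted p = 0.00817).

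Of the other lower genes, Traip, a ubiquitin ligase of DNA replication, Jazf1, a zinc finger protein, and Gm20559, a long noncoding RNA, were at 1.07 to 2.31 CPM in WT p38KO mice and 0 to 0.233 CPM in AD p38KO mice. The remaining 3 were measurable in every mouse. Ermap, a membrane protein of the erythroid lineage, was at 9.44, 10.1, 11 and 15.8 CPM in WT p38KO mice and 3.98, 5.73, 3.57 and 3.38 CPM in AD p38KO mice (log2 fold change -1.37 ± 0.26, SE, limma adjusted p = 0.0252). Rhbdd2, a rhomboid-family protein, was at 36.2, 44.9, 40.3 and 32.0 CPM and then 19.2, 25.8, 21.7 and 22.8 CPM (log2 fold change -0.76 ± 0.16, SE, limma adjusted p = 0.0449). Wdr5b, a WD-repeat protein, was at 9.71, 16.4, 12 and 20.6 CPM and then 6.17, 6.61, 3.34 and 6.56 CPM (log2 fold change -1.29 ± 0.26, SE, limma adjusted p = 0.0378). Beside these falls stands the smaller number of genes with a read in AD p38KO libraries. Among all genes tested, 22 were under 1 CPM in every AD p38KO mouse and 7 in every WT p38KO mouse. The part that this difference in detection plays in the 10 calls was not tested. Summed border-associated macrophage markers were 514 to 682 CPM in WT p38KO mice and 361 to 605 CPM in AD p38KO mice (exact permutation test, two-sided, p = 0.143), and summed endothelial and mural markers were 46.4 to 60.8 and 39.8 to 54.0 CPM (exact permutation test, two-sided, p = 0.229). Without 1 library, 2 to 6 of the 10 calls remained.

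**Figure D3:**
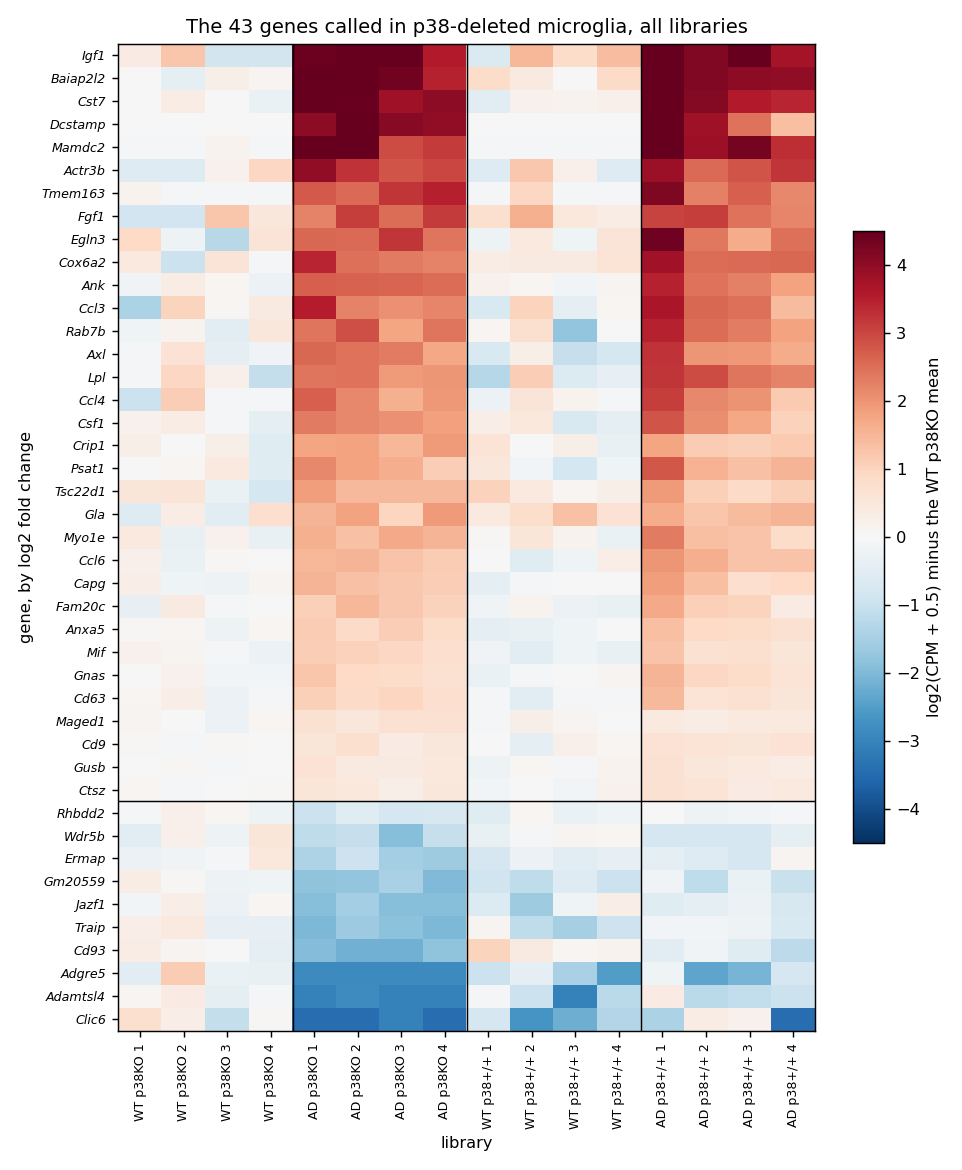
The heatmap shows the 43 called genes (rows, by log2 fold change) in all 16 libraries (columns), as log2(CPM + 0.5) minus the mean of the 4 WT p38KO mice. For 32 of the 33 higher genes every AD p38KO mouse, and for 31 every AD p38+/+ mouse, lies above every WT p38+/+ mouse. The 10 lower genes, chosen for lower values in AD p38KO than in WT p38KO mice, are blue in the 4 AD p38KO columns. Among the 4 group means, that of AD p38KO mice was the lowest for all 10. That of WT p38KO mice was the highest for 9 of them, above the WT p38+/+ mean as well.

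The same transgene comparison in mice with intact p38α used the other 8 libraries, so the calls rest on separate mice, although the model shares 1 estimate of the spread. There, 48 genes were called higher (0.369%) and 0 lower by limma, and without adjustment 936 genes (7.2%) had a p under 0.05, 323 of them lower (2.48%). All 33 genes that rose with p38α deleted were also higher with p38α intact at an unadjusted p under 0.05, and 28 of them were called, which is 65.1% of the 43 p38KO calls and 58.3% of the 48 p38+/+ calls. Their median log2 fold change was 2.10 without and 1.95 with p38α. Crip1, Fgf1, Maged1, Gla and Tsc22d1 were the 5 called only with p38α deleted. The 20 genes called only with p38α intact, among them Clec7a, Itgax, Lox, Cd68 and Pkm, had a median log2 fold change of 0.53 with p38α deleted. These 20 are other genes, chosen by the p38-intact comparison, so this median cannot be set against those of the 33. All 48 genes called with p38α intact had the same sign with p38α deleted, and 47 of them had an unadjusted p under 0.05 there. The 10 lower genes had a median log2 fold change of -1.85 without and 0.10 with p38α. For 3 of them the sign was the same in both genotypes.

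**Figure D4:**
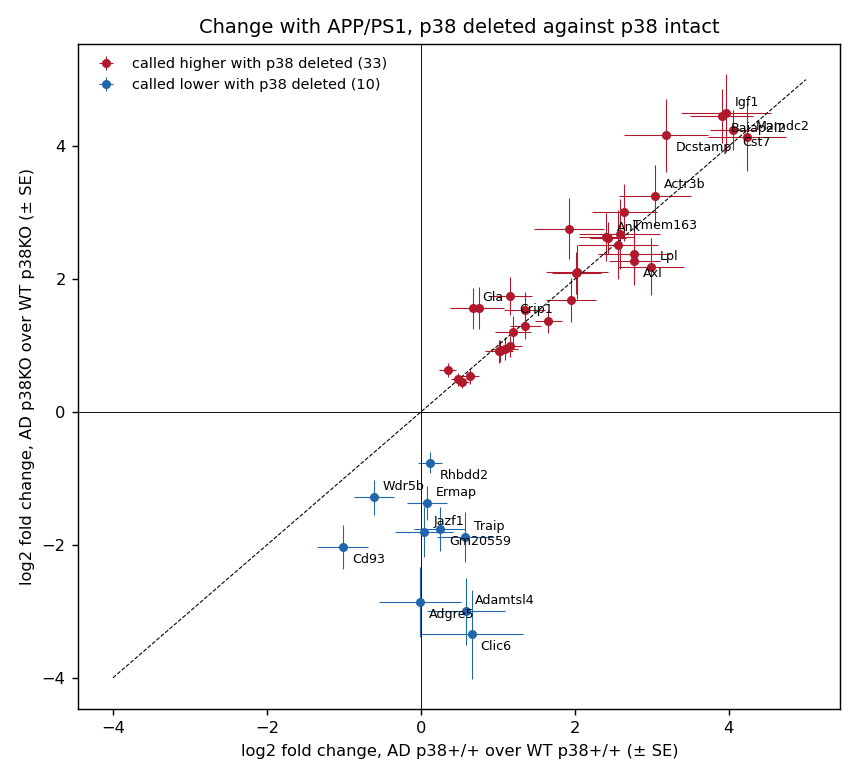
Each called gene is placed by its log2 fold change in p38-intact (horizontal) and p38-deleted (vertical) microglia, with SE bars, and the dashed line marks equal change. The 33 higher genes (red) lie along the line, and the 10 lower genes (blue) lie below it with p38-intact changes between -1.01 and 0.66.

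The difference between the 2 transgene effects was tested directly as an interaction. By limma 0 of 13000 genes were called, 492 were past an unadjusted p of 0.05 (201, or 1.55%, with a more positive and 291, or 2.24%, with a more negative effect without p38α), and the smallest adjusted p was 0.987. None of the 33 higher genes was past an unadjusted p of 0.05. The interval of the difference was -0.69 to 1.07 for Cst7, -0.51 to 0.89 for Ank, -1.20 to 2.28 for Igf1, -1.47 to 0.47 for Axl and -2.07 to 0.47 for Lpl (95% confidence, log2). Of the 10 lower genes, 9 had an unadjusted interaction p under 0.05, and these genes had been chosen for a fall in 1 of the 2 comparisons that make up the difference. The 6 genes with the smallest interaction p were Adamtsl4, Traip, Flt3, Igfbp2, Mpv17l and Gm20559, none past adjustment. Flt3, the receptor of a growth factor for blood progenitors, was at 2.44, 1.37, 0.791 and 2.44 CPM in WT p38KO mice and 0.150, 1.11, 0.311 and 0 CPM in AD p38KO mice. Igfbp2, which binds insulin-like growth factors, was at 3.82, 3.03, 1.22 and 1.79 CPM and then 1.13, 1.35, 0.311 and 0 CPM. Mpv17l, a peroxisomal and mitochondrial membrane protein, was at 6.83, 13.1, 5.90 and 8.81 CPM and then 4.14, 2.79, 2.41 and 2.44 CPM without overlap (limma adjusted p = 0.0688 for AD p38KO against WT p38KO).

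No homeostatic gene was called. Of 47 tested, 0 passed adjustment by limma. At an unadjusted p under 0.05, 1 was higher and 6 lower, against 3.86% and 5.55% of all genes. The log2 fold change was positive for 12, against 44.5% of all genes, with a median of -0.11 against -0.04 over all genes. Their summed level was 143272 to 155613 CPM in WT p38KO mice and 139660 to 144979 CPM in AD p38KO mice (exact permutation test, two-sided, p = 0.0571). Tmem119 was at 7115, 6443, 7277 and 6770 CPM in WT p38KO mice and 6092, 6081, 6086 and 6052 CPM in AD p38KO mice, without overlap and without a call (log2 fold change -0.18 ± 0.09, SE, limma adjusted p = 0.547). Cx3cr1, the fractalkine receptor, was at 3553 to 4061 and 2978 to 3609 CPM (limma adjusted p = 0.466), and P2ry12, on which the cells were sorted, was at 7903 to 9928 and 7158 to 8216 CPM (limma adjusted p = 0.698). The fructose transporter Slc2a5 had the lowest log2 fold change of the list, -1.56 ± 0.56 (SE, limma adjusted p = 0.381), with 282 to 1041 CPM in WT p38KO mice and 93.3 to 343 CPM in AD p38KO mice.

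Of 53 interferon-response genes, 0 were called by limma. At an unadjusted p under 0.05, 11 were higher and 1 lower (3.86% and 5.55% of all genes). The median log2 fold change was 0.36 without and 0.70 with p38α, where 2 were called. An unadjusted interaction p under 0.05 was seen for 2 of the 53, against 3.78% of all genes. The sums of all 53 were 1592, 2172, 1848 and 1703 CPM in WT p38KO mice and 2924, 2505, 2215 and 1904 CPM in AD p38KO mice (exact permutation test, two-sided, p = 0.0571), with mouse 1 the highest. With p38α intact the sums were 1436 to 1798 CPM in WT mice and 1871 to 2817 CPM in AD mice. Lgals3bp was at 243 to 374 and 395 to 868 CPM (limma adjusted p = 0.242) and Rtp4 at 16.6 to 38.6 and 36.3 to 63.7 CPM (limma adjusted p = 0.123). Of 21 MHC class I and 10 MHC class II genes, 0 were called and 1 in each list was past an unadjusted p of 0.05, with median log2 fold changes of 0.18 and 0.01. Of 14 cytokines and chemokines outside the DAM lists, 0 were called and 1 was past an unadjusted p of 0.05, lower. The inflammatory cytokine Tnf was at 2.20, 16.4, 1.15 and 4.94 CPM in WT p38KO mice and 0.752, 2.55, 1.48 and 1.15 CPM in AD p38KO mice (limma adjusted p = 0.6).

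**Figure D5:**
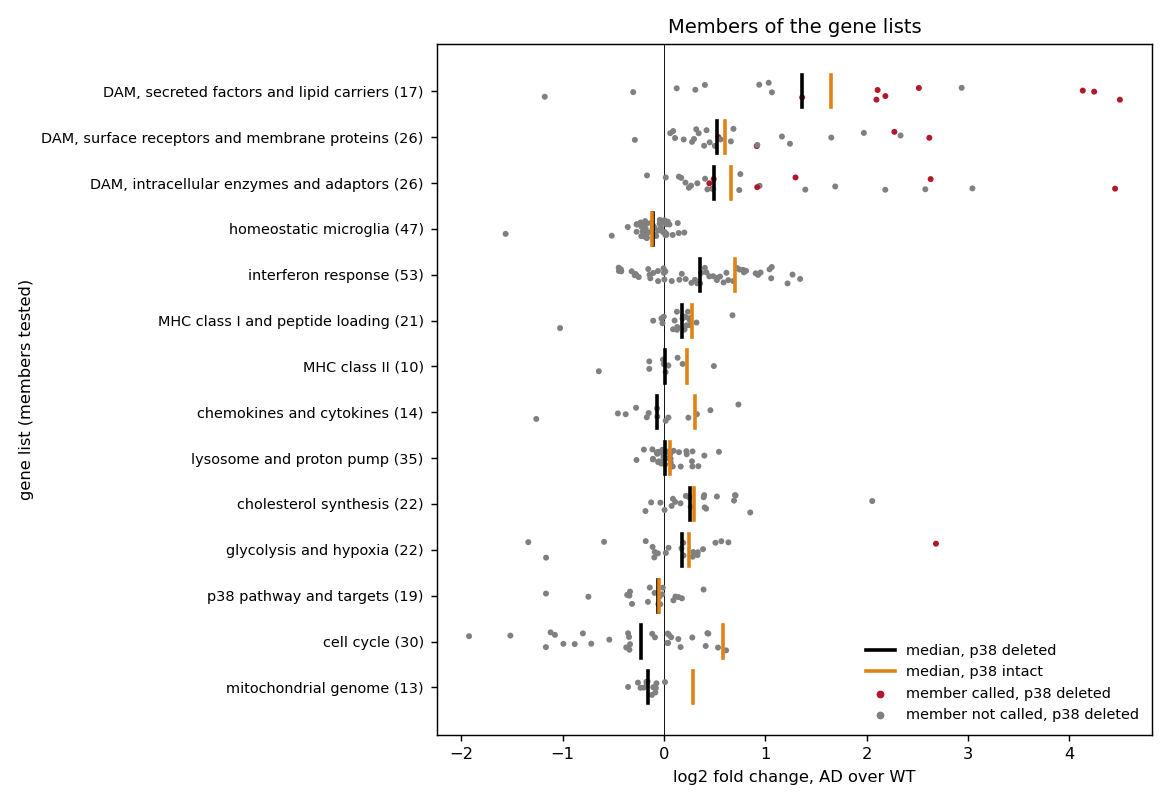
Each point is the log2 fold change (AD over WT, p38 deleted) of 1 list member, red where called, with the list's median in p38-deleted (black) and p38-intact (orange) microglia. The 3 DAM lists lie to the right with medians of 0.49 to 1.36, and the homeostatic list centres at -0.11.

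Cholesterol and fatty acid synthesis genes summed to 635 to 673 CPM in WT p38KO mice and 744 to 892 CPM in AD p38KO mice (exact permutation test, two-sided, p = 0.0286). Of 22 tested, 0 were called by limma. At an unadjusted p under 0.05, 5 were higher and 0 lower (3.86% and 5.55% of all genes), and 4 did not overlap, all higher (2.74%). Acaca, the carboxylase that starts fatty acid synthesis, was at 0.919, 4.33, 6.16 and 3.18 CPM in WT p38KO mice and 16.9, 11.7, 15.2 and 14.5 CPM in AD p38KO mice (log2 fold change 2.05 ± 0.43, SE, limma adjusted p = 0.052). Of 22 glycolysis and hypoxia genes, 8 were higher and 1 lower at an unadjusted p under 0.05 (3.86% and 5.55% of all genes). The pyruvate kinase Pkm was at 228 to 257 CPM in WT p38KO mice and 285 to 447 CPM in AD p38KO mice (limma adjusted p = 0.0943). Of 35 lysosome and proton pump genes outside the DAM lists, 0 were called by limma, 6 were higher and 2 lower at an unadjusted p under 0.05, and the median log2 fold change was 0.01. The progranulin gene Grn, at 3461 to 3746 and 3971 to 4324 CPM, did not overlap in one direction, and the protease Lgmn, at 4129 to 4593 and 3635 to 4083 CPM, in the other (limma adjusted p = 0.26 and 0.394).

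Of 19 genes of the p38 pathway and its targets, 0 were called by limma. At an unadjusted p under 0.05, 1 was higher and 3 lower, against 3.86% and 5.55% of all genes. The phosphatase Dusp1 was at 36.9, 49.5, 9.07 and 25.4 CPM in WT p38KO mice and 15.8, 6.68, 14.4 and 9.95 CPM in AD p38KO mice, with overlap (limma adjusted p = 0.463), and the p38 kinase Map2k3 was at 45.7 to 53.5 and 33.5 to 46.3 CPM (limma adjusted p = 0.455). Of 27 genes at Alzheimer risk loci, 0 were called, 3 were higher and 2 lower at an unadjusted p under 0.05, and their sum was 10178 to 10486 CPM in WT p38KO mice and 11319 to 11506 CPM in AD p38KO mice (exact permutation test, two-sided, p = 0.0286). Their log2 fold change was positive for only 10 of the 27 with a median of -0.03, so the sum, which weights genes by their level, and the median differed in sign. Ms4a6b was at 115.3, 104.4, 114.4 and 114.5 CPM in WT p38KO mice and 72.5, 97, 79.2 and 75.4 CPM in AD p38KO mice, without overlap (limma adjusted p = 0.124).

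Cell cycle genes had opposite medians in the 2 genotypes. Of 30 tested, 0 were called by limma in either, and the median log2 fold change was -0.23 without p38α, where 13 were positive (44.5% of all genes were), and 0.58 with p38α, where all 30 were positive (48.7% of all genes were). Interaction p-values under 0.05, unadjusted, were seen for 6 of the 30, against 3.78% of all genes. The median without p38α became 0.05 when genes had to reach 5 CPM. Their sums were 366 to 531 CPM in WT p38KO mice and 431 to 501 CPM in AD p38KO mice (exact permutation test, two-sided, p = 0.771). The kinesin Cenpe was at 1.46, 2.02, 1.01 and 1.58 CPM in WT p38KO mice and 0, 0.637, 0.388 and 0.880 CPM in AD p38KO mice (limma adjusted p = 0.317). Of 19 replication-dependent histone genes, 0 were called, and 4 had an unadjusted p under 0.05, all lower (5.55% of all genes), and the median was -0.42. The histone gene H2ac6 was at 12.6, 13.4, 7.54 and 7.4 CPM in WT p38KO mice and 0.695, 4.77, 4.63 and 0.0699 CPM in AD p38KO mice (limma adjusted p = 0.0794). The 13 mitochondrially encoded genes had a median of -0.16 without and 0.29 with p38α. The median without p38α became 0.005 with the animal number as a block and sex as a covariate. By limma 5 of the 13 had an unadjusted interaction p under 0.05, against 3.78% of all genes. The summed level of the 13 was 5259 CPM in WT p38+/+ mouse 2, 8800 to 10923 CPM in the rest of its group, and 8654 to 10744 CPM in AD p38+/+ mice. The part that this library plays was not tested.

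A further 7 genes had been chosen from the study's text, namely Cdc37l1, Csf2ra, Ifitm2, Klf7, N4bp2, Rtp4 and Tmc7, and none was called between AD p38KO and WT p38KO mice. The study had picked them in these libraries, among genes affected by the AD genotype, for differing between AD p38KO and AD p38+/+ mice. That contrast is part of the interaction, so their interaction p-values are not independent of that choice. With p38α intact, Ifitm2 and Csf2ra were among the 48 genes called higher in AD mice by limma. The study reports both as reduced in AD p38+/+ mice. Ifitm2, an interferon-induced membrane protein, was at 4.72, 3.90, 2.01 and 3.01 CPM in WT p38KO mice and 5.64, 4.46, 3.57 and 5.14 CPM in AD p38KO mice (limma adjusted p = 0.69). Csf2ra, a subunit of the GM-CSF receptor, was at 42.5 to 62.0 and 56.6 to 71.6 CPM (limma adjusted p = 0.521). Tmc7 was at 24.6 to 29.3 and 13.1 to 21.7 CPM without overlap (limma adjusted p = 0.336). Klf7, Cdc37l1 and N4bp2 had log2 fold changes of 0.11, -0.02 and 0.24, with overlap between groups. Their interaction p-values, unadjusted, were 0.00188, 0.0217 and 0.00969, and 0.0093 for Ifitm2, none of which passed adjustment by limma (492 genes, or 3.78%, were past 0.05 unadjusted).

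At the level of transcripts, 29 of 29397 tested were called by limma (0.0986%), 23 higher (0.0782%) and 6 lower (0.0204%), and 24 of these belonged to 20 of the called genes. Without adjustment, 2524 transcripts (8.59%) had a p under 0.05. Both annotated transcripts of Ank were called: the coding Ank-201 was at 35.1, 52.6, 45.9 and 40.1 CPM in WT p38KO mice and 285, 274, 276 and 257 CPM in AD p38KO mice, and the retained-intron Ank-202 at 5.68 to 16.8 and 56.0 to 72.5 CPM. The coding Igf1-202 was the main Igf1 transcript, at 0.853, 1.05, 0.144 and 0 CPM in WT p38KO mice and 10.8, 19.6, 23.7 and 9.77 CPM in AD p38KO mice. The other 5 called transcripts, of Acot6, Alg10b, Pdcd10, Zfp30 and Ncbp3, belonged to genes that were not called. The Pdcd10 transcript was higher and the other 4 lower, and assignment of reads between transcripts of 1 gene is less certain than the gene totals.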

How the data were processed

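RNA of sorted microglia was sequenced from 16 mice, 4 per group, all mapped to groups by their labels. Per the methods, the authors aligned reads with STAR and used Partek Flow (10.0.22.0828) to assign these to transcripts of Ensembl. They deposited gene and transcript tables in CPM (counts scaled to the total of assigned reads) with 0.0001 added to every value, which was subtracted here. Read counts were not used: dividing low values by the value of 1 read gave a whole number (tolerance 0.05) for only 74 to 80.2%, so the count test of the methods was replaced by limma. The depth was estimated from these steps as 12.3 to 16.4 reads per CPM, and intervals and floors cover counting error only. No value column was left without a sample.

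A gene was tested where 4 or more of the 8 p38KO libraries reached 1 CPM (13000 of 20267, 7267 set aside). All 16 libraries were fitted in 1 model of log2(CPM + 0.5) with a mean per group in limma (3.58.1, under R 4.3.3) with a trended prior, two-sided, with Benjamini-Hochberg adjustment over all genes of a comparison and a threshold of 0.05. Single values were compared by exact permutation tests. The fit was tested on simulated data with an assumed spread. It recovered 53 of 100 genes changed by a log2 of 1 and 97 of 100 changed by a log2 of 2. Of 160 calls 10 were false, and 0 genes were called in simulated data without any change. Each library is 1 mouse. Between the p38KO groups, deviations of mice with the same number were nearly uncorrelated (-0.04, -0.04, 0.05 and -0.03). This cannot show whether such mice shared a litter or a batch. Mouse 1 was labelled female in every group. The number was not used as a block in the main fit. Gene positions in the deposited table matched GENCODE M21 for 99.1% of 19733 symbols.

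The comparison, the 32 gene lists and the tests were chosen with earlier results of these data known. Genes are named by a rule: the 12 largest rises and the falls among called genes without overlap, the smallest p-values, list members by p or level, and the 6 smallest interaction p-values. The other called genes were added after their values were seen, and a few genes that the rule names are not reported here. Python 3.11.15, numpy 2.4.6, pandas 2.3.3, scipy 1.17.1 and matplotlib 3.10.9 made tables and figures.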

Additional observations from a re-analysis of the deposited data

Results flagged for a closer look

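Among 254 sets of 4 mice (each named gene and each list sum in WT p38KO and in AD p38KO mice), 21 had 1 mouse far from the other 3 on the log2 scale, where chance gives about 1 in 20.

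AD p38KO mouse 1 was above its group for Ccl3 (129 CPM, others 45.8 to 51.8), Tsc22d1 (22.3 CPM, others 16.2 to 16.4), the summed intracellular DAM genes (42660 CPM, others 34490 to 35680) and the summed microglia markers (66340 CPM, others 64050 to 64410). AD p38KO mouse 2 was below its group for Maged1 (100.7 CPM, others 112.2 to 112.7), mouse 3 for Wdr5b (3.34 CPM, others 6.17 to 6.61) and mouse 4 for Tmc7 (13.1 CPM, others 20.6 to 21.7). WT p38KO mouse 2 was above its group for Itgax (35.5 CPM, others 13.3 to 14.5), Adgre5 (7.42 CPM, others 2.11 to 2.45) and the summed cytokines and chemokines (778 CPM, others 625 to 647), and below it for Ms4a6b (104.4 CPM, others 114.4 to 115.3). WT p38KO mouse 3 was below its group for Anxa5 (25.8 CPM, others 31.6 to 32.7), Gusb (383 CPM, others 417 to 423) and Tyrobp (696 CPM, others 788 to 794). WT p38KO mouse 1 was above its group for the summed MHC class II genes (1175 CPM, others 908 to 922), and WT p38KO mouse 4 was below for Tmc7 (24.6 CPM, others 28.5 to 29.3).

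The other 5 were 1 or 2 reads in a group otherwise at 0: Mamdc2 in WT p38KO mouse 3 (0.072 CPM), Tmem163 in WT p38KO mouse 1 (0.0814 CPM), Adamtsl4 in AD p38KO mouse 2 (0.0796 CPM), Clic6 in AD p38KO mouse 3 (0.155 CPM) and Jazf1 in AD p38KO mouse 2 (0.159 CPM). AD p38KO mouse 1 is the library labelled female that had Xist at 0 CPM.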

How the results depend on the processing

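The 43 calls (33 higher, 10 lower) and 29 transcript calls stayed within 1.5 times under other pseudocounts, no filter, median-of-ratios scaling, array weights, the S0 label as a covariate and summed transcripts. A filter of 5 CPM gave 3 lower genes and 16 transcripts, quantile scaling 6 lower genes, and sex as labelled, as a covariate, 52 higher genes and 49 transcripts. Fitting only the 8 p38KO libraries gave 4 lower genes and 19 transcripts, and fitting only the 8 p38+/+ libraries gave 28 p38+/+ calls in place of 48. Without AD p38KO mice 1 and 4 together, 17 genes (13 higher, 4 lower) and 18 transcripts were called. Without any filter, 4 genes were called for the interaction in place of 0. The cause of these changes was not tested. A 5 CPM filter tests fewer genes.

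With the animal number as a replicate block, 43 genes were called (36 higher and 7 lower, 37 of the original 43 among them), and with sex added to the block 32 (28 higher and 4 lower). The labels do not say that the numbers pair the mice.

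Leaving out 1 library at a time gave 22 to 48 calls, 18 to 34 higher, 3 to 20 lower, 15 to 66 transcripts, 25 to 45 p38+/+ calls and 0 interaction calls. The lowest counts of calls were 22 without WT p38KO mouse 4 and 24 without AD p38KO mouse 1. WT p38KO mice 1 and 3 gave 27 and 26, and 20 and 17 genes were lower without AD p38KO mouse 2 or 3. Without p38+/+ mice, 25 and 28 p38+/+ calls were left without AD mouse 1 and 2, and 29 without WT mouse 3.

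Of 95 genes followed by name over the alternatives, 12 of the 43 called genes were called in every one. Of the 52 others, 11 were called in at least 1 alternative, Hif1a and Itgax among them. Small changes reversed for 3 uncalled genes. Klf7 was at -0.063 with array weights, -0.17 without AD p38KO mice 1 and 4 together and -0.042 to 0.28 without single mice. Cdc37l1 was at 0.027 with array weights, 0.10 with the block and sex, 0.067 without AD p38KO mice 1 and 4, and -0.099 to 0.097 without single mice. Spp1 ranged from -0.15 (without AD p38KO mouse 1) to 0.94 (without AD p38KO mouse 4) and was at -0.11 without WT p38KO mouse 1. Depth limits genes under about 0.2 CPM, where 3 reads or fewer were counted.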
